A study of Gallus gallus with 6 samples.

Results

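The genes described here are the molecular chaperones of the heat shock protein (HSP), J-domain (DNAJ) and cytosolic chaperonin (CCT) families in chick embryo mesenchyme. They were chosen by gene name (HSPA, HSPB, HSPD, HSPH, HSP or CCT followed by a digit, DNAJ), by 3 named entries (TCP1, ZFAND2A and O42283_CHICK, which is HSPE1), or by a description containing heat shock protein or T-complex protein 1. The rule found 44 of the 17781 entries of the deposited table. Of these, 42 reached 1 CPM (counts-per-million value, here of the reads counted to genes) in at least 1 library and were kept, out of 12737 such entries in the table. The other two were HSPB3, with 0 reads in every library, and DNAJC5B, with at most 0.421 CPM. A few entries came in by wording: Q5F4C3_CHICK is described as a putative t-complex protein 11 and is not a chaperonin subunit, and HSPBAP1 is an HSPB1-associated protein.

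The libraries were made from polyadenylated RNA of mesenchyme dissected directly from untreated chick embryos, with no genotype or strain in the labels. Limb was represented by presumptive forelimb at Hamburger-Hamilton stage 15 (HH15), forelimb bud at HH19 and hindlimb bud at HH18. Trunk was represented by neck and flank at HH19, and the labels give a sixth library, also of HH19, as flank and neck. There was 1 library per tissue and stage, the number of embryos behind each was not stated, and no value below has a replicate error. In this bulk RNA a lower share of a cell type and less RNA per cell cannot be told apart.

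Between 7130877 and 9623046 reads were counted per library, so that 3 reads, the floor used here, corresponded to 0.312 to 0.421 CPM. Of the 4 mesenchyme genes found, PRRX1 was at 117 to 491 CPM and PDGFRA at 54.4 to 132 CPM over the 6 libraries, VIM ran from 85.3 CPM in forelimb HH15 to 658 CPM in flank, and TCF21 was at 3.32 CPM in neck, 2.90 CPM in flank and at most 0.421 CPM elsewhere. Of the 5 limb genes, TBX4 was at 131 CPM and PITX1 at 196 CPM in hindlimb; outside it TBX4 reached at most 4.47 CPM and PITX1 46.8 CPM, both in flank. TBX5 did not part limb from trunk, with 336 and 182 CPM in the forelimb libraries, 165 CPM for neck, 102 CPM for flank and 0.520 CPM in hindlimb. FGF10 was at 6.31 to 20.4 CPM in limb, 9.86 CPM in the library labelled flank and neck and 1.93 to 3.19 CPM in neck and flank. LHX2 was at 92.9 and 81.8 CPM in the later buds and at 89.2 CPM in the library labelled flank and neck, against 25.9 CPM in forelimb HH15, 28.5 CPM for neck and 1.69 CPM for flank. Blood, endothelial and epithelial genes differed between libraries. The 5 blood genes found, all globins, summed to 40064 CPM in flank and to 44.6 to 4440 CPM in the other libraries. The 5 endothelial genes found summed to 126 CPM in neck against 34.7 to 67.4 CPM elsewhere, although GJA4, one of them, was at 0.737 CPM in neck and at 3.64 to 6.86 CPM in limb. The 3 epithelial genes found summed to 61.4, 46.3 and 52.1 CPM in forelimb HH15, neck and flank, to 21.6 and 20.6 CPM in forelimb HH19 and hindlimb HH18 and to 32.7 CPM in the library labelled flank and neck, and the 5 neural genes found to 36.4 to 60.8 CPM. The 3 epithelial genes did not share 1 order. CDH1 was lowest of the 6 libraries in flank, at 16.2 CPM. It was highest in the library labelled flank and neck, at 31.7 CPM. EPCAM and KRT5 were lowest in that library, at 0.448 and 0.560 CPM. Whether blood, endothelial, epithelial or neural cells had a part in the differences below was not tested.

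Chaperones keep unfolded proteins from clumping and help them reach their working shape. HSP70 proteins bind exposed stretches of a client in a cycle driven by ATP, J-domain proteins bring clients and start that cycle, and HSP110 proteins release the nucleotide to reset it. Chaperonins enclose a client in a barrel, HSP90 acts on nearly folded clients such as receptors and kinases, and small HSPs hold unfolded proteins until the others act. Some of these genes are active in every growing cell, while others are switched on by heat shock factors under stress.

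Setting the 3 limb libraries against neck and flank addresses which of these genes separated limb from trunk mesenchyme. The chaperonins, the constitutive cytosolic HSP70 (HSPA8) and its partner HSPH1 stood higher in all 3 limb libraries, while the heat-inducible HSP70 and the collagen chaperone SERPINH1 stood lower in all 3. Of the 41 entries tested (HSPB7 reached 1 CPM only in the library labelled flank and neck), the quasi-likelihood test of edgeR, adjusted by Benjamini-Hochberg over all genes, called 2 higher in limb, HSPE1 and ZFAND2A, against 0.0561% of the 12486 genes tested. It called 0 lower, against 0.0801% of all genes. Both called entries were among the 3 that the rule names singly. Members were chosen with earlier results of these data known, so nothing about the families is concluded from these 2 calls. Before adjustment, the edgeR p was under 0.05 for 16 entries higher in limb (39% of 41, against 12.9% of all genes) and for 4 lower (9.76%, against 10.5%). With DESeq2, 14 entries passed as higher, against 7.5% of the 11513 genes given a DESeq2 adjusted p, and 3 as lower, against 4.11%. With limma 3 passed as higher, against 0.12% of all genes, and 0 as lower, against 0.224%. Each test takes its spread from tissues and stages that differ within a class, not from replicates of a tissue. Without forelimb HH15 the edgeR counts were 6 higher, against 2.36% of all genes in that fit, and 2 lower, against 2.7%. They were 0 in both directions without forelimb HH19 or hindlimb HH18, where edgeR also called 0 of all genes. In those 2 fits 14 and 15 entries were higher and 4 lower with an edgeR p under 0.05 before adjustment. The shares of all genes at that mark were not counted there, so these counts cannot be weighed and nothing is concluded from them. Without neck or flank only 1 library remained in the trunk class, so no counts are given.

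By order alone, 19 of the 41 entries (46.3%) were higher in every limb library than in neck and flank, against 15.4% of all genes, and 9 (22%) were lower in every limb library, against 27.5% of all genes. The remaining 13 overlapped. The median difference in log2(CPM + 1) between limb and non-limb was 0.16 over the 41 entries and -0.14 over all genes. With each library centred on its median the split of entries without overlap was 25 higher and 5 lower (83.3% higher, against 67.9% before centring). All genes shifted the same way, to 28% higher and 16% lower, so that 63.6% of those without overlap were higher, against 35.9% before centring. The mean was higher in limb for 61% of the entries and for 37.8% of all genes. Without flank, 14 entries (34.1%) were lower without overlap, against 47.4% of all genes.

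**Figure D1:**
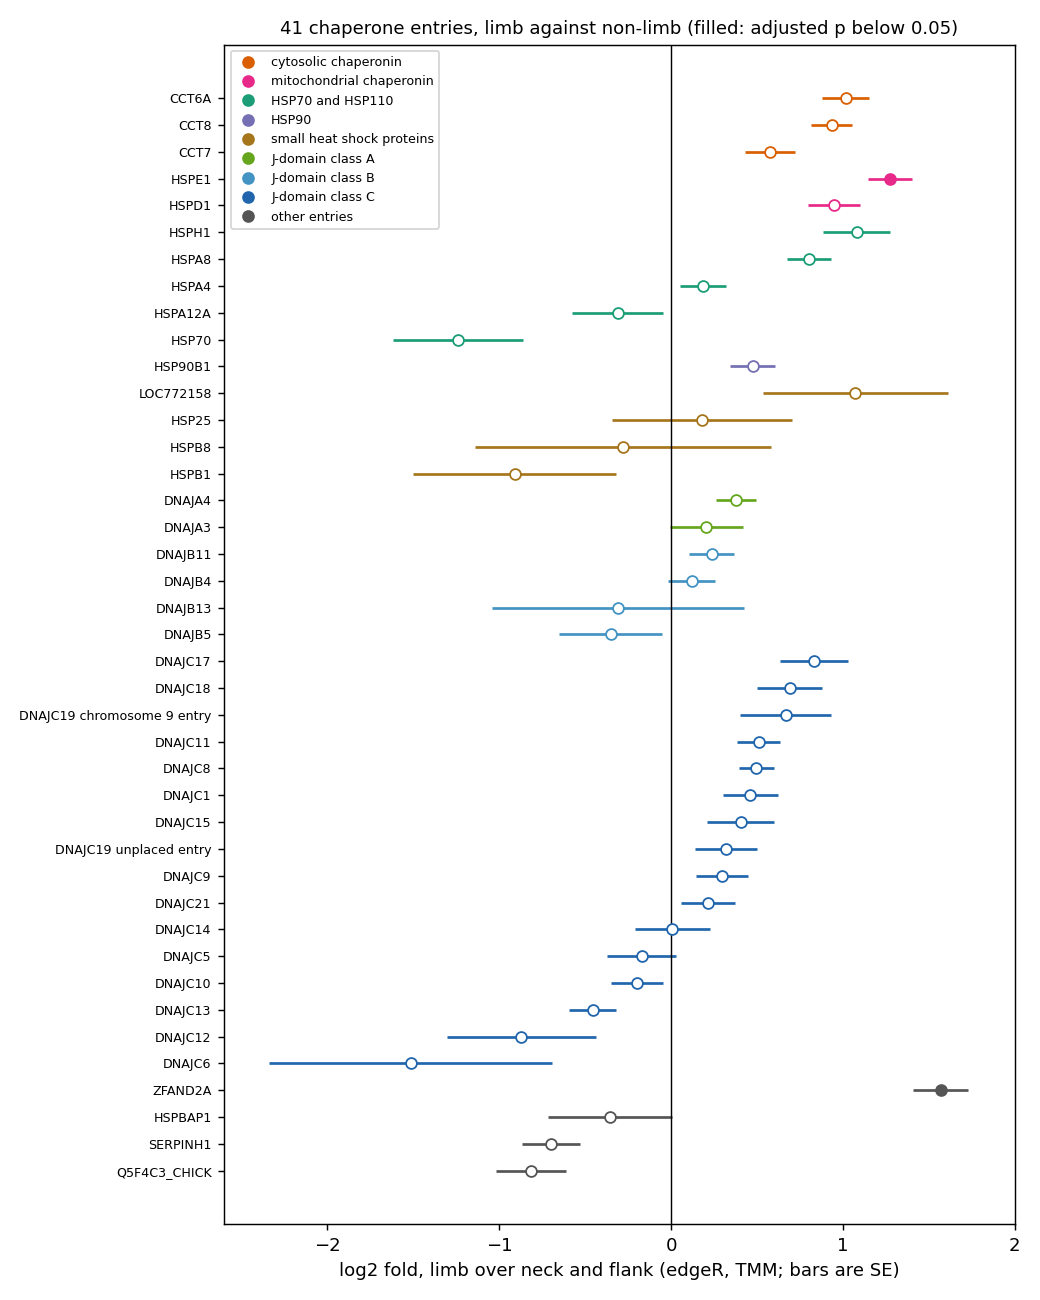
The log2 fold of limb over neck and flank from edgeR is plotted on the x axis for each of the 41 entries tested, with bars for the standard error, coloured by family. The chaperonin entries lie to the right of 0, from 0.58 for CCT7 to 1.27 for HSPE1, while HSP70 lies at -1.24, and the 2 filled points are HSPE1 and ZFAND2A.

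Among the chaperonin entries, the gap between the lowest limb and the highest trunk library was 1.07 log2 for HSPE1, 0.75 for CCT6A, 0.60 for CCT8, 0.49 for HSPD1 and 0.087 for CCT7. HSPE1, the lid of the mitochondrial chaperonin, was at 981 CPM in forelimb HH15, 1006 CPM in forelimb HH19 and 997 CPM in hindlimb, against 435 CPM for neck and 465 CPM for flank. The 3 limb libraries were nearly level, and both trunk libraries lay far beneath them. The 95% Wilson interval, which covers counting error only, ran from 958 to 1004 CPM in forelimb HH15 (lowest of limb) and from 451 to 480 CPM in flank (highest of trunk). HSPE1 rose by 1.27 ± 0.13 (log2, SE; edgeR adjusted p = 0.0445). HSPD1, the barrel subunit, was at 701, 555 and 759 CPM across presumptive forelimb, forelimb bud and hindlimb bud, with neck at 394 CPM and flank at 369 CPM. Its limb libraries were all above the trunk ones but spread more widely than those of HSPE1. Its edgeR log2 fold was 0.95 ± 0.15 and did not pass (edgeR adjusted p = 0.0566). In the table's own coordinates the entries of HSPD1 and HSPE1 lie side by side on chromosome 7 on opposite strands, pointing away from each other, with 2385 bases between them.

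The cytosolic chaperonin, whose ring of distinct subunits folds actin and tubulin, had 3 entries under the rule. CCT8 (theta subunit) was at 1048, 1039 and 1096 CPM across presumptive forelimb, forelimb bud and hindlimb bud, against 684 CPM for neck and 539 CPM for flank. CCT6A (zeta subunit) was at 658, 771 and 675 CPM in the limb libraries in the same order, with neck at 391 CPM and flank at 370 CPM. CCT7 was at 502, 363 and 392 CPM in limb, against 342 CPM for neck and 275 CPM for flank. None of the 3 overlapped, but CCT7 came close, with an interval of 350 to 377 CPM in forelimb HH19 beside 329 to 355 CPM in neck. Their edgeR log2 folds were 0.94 ± 0.12, 1.02 ± 0.14 and 0.58 ± 0.15, with edgeR adjusted p = 0.0555 for CCT8 and CCT6A and 0.0973 for CCT7. CCT6A passed under limma (adjusted p = 0.0485), and all 3 did under DESeq2. The table holds 3 more entries described as chaperonin containing TCP1, without a subunit, that the rule leaves out and that were looked up after values were seen. Q5F411_CHICK was at 648 to 786 CPM, Q5F424_CHICK at 651 to 728 CPM and Q9I8D6_CHICK at 398 to 423 CPM in limb, against 382 and 470 CPM, 391 and 474 CPM, and 253 and 265 CPM in flank and neck. None of these overlapped either, and their edgeR log2 folds were 0.90, 0.82 and 0.79, with edgeR adjusted p between 0.0555 and 0.0561.

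**Figure D2:**
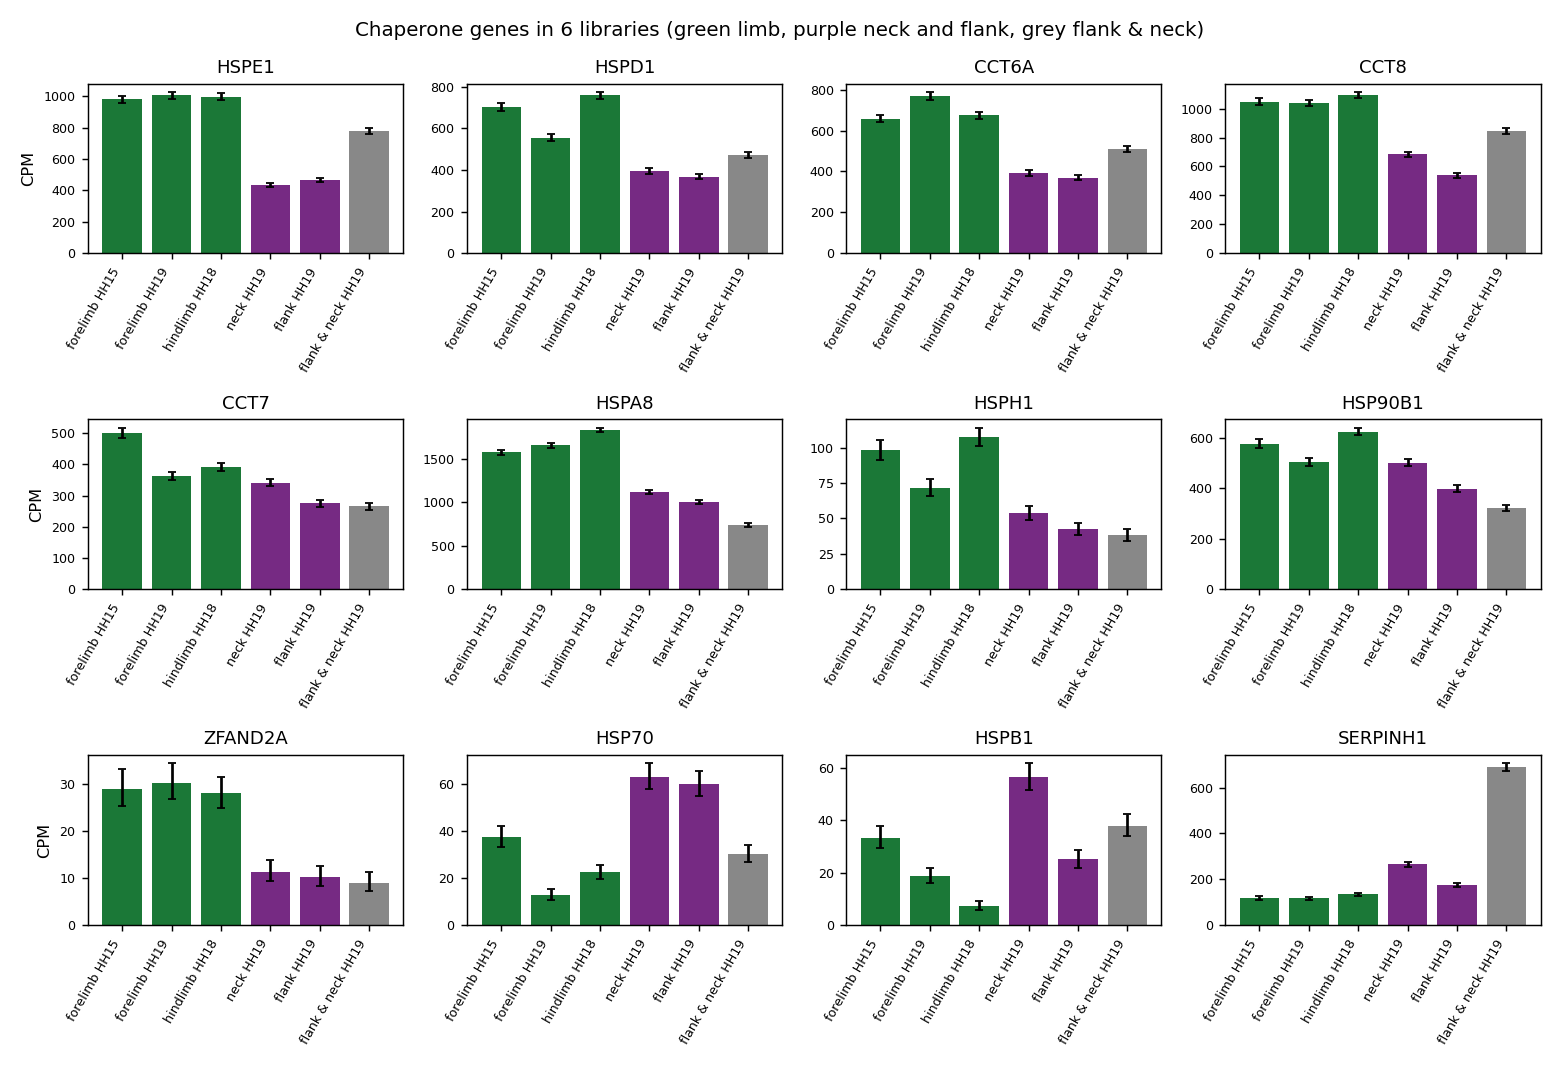
Each panel gives the CPM of 1 gene in the 6 libraries from a baseline of 0, with 95% Wilson intervals for counting error; limb is green, neck and flank are purple and the library labelled flank and neck is grey. HSPE1 stands at 981 to 1006 CPM in limb, against 435 CPM for neck and 465 CPM for flank. HSP70 is lower in limb than in neck and flank, with 30.4 CPM in the library labelled flank and neck. SERPINH1 peaks at 689 CPM in that library.

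Members of the HSP70 and HSP110 families went in both directions. HSPA8, the constitutive cytosolic HSP70, was at 1577, 1653 and 1832 CPM across presumptive forelimb, forelimb bud and hindlimb bud, with neck at 1121 CPM and flank at 1005 CPM. HSPH1, an HSP110 nucleotide exchange factor, was at 98.3, 71.6 and 108 CPM in limb, against 53.8 CPM for neck and 42.4 CPM for flank. Both were higher in 3 of 3 limb libraries, with edgeR log2 folds of 0.80 ± 0.13 (edgeR adjusted p = 0.0566) and 1.08 ± 0.20 (edgeR adjusted p = 0.0645). The entry HSP70_CHICK, the heat-inducible cytosolic HSP70, was at 37.3 CPM in forelimb HH15, 12.7 CPM in forelimb HH19 and 22.3 CPM in hindlimb, against 63.1 CPM in neck and 60.1 CPM in flank. It was thus lowest in the later buds and highest in neck and flank. The library labelled flank and neck had 30.4 CPM, below forelimb HH15. The summed epithelial genes given above were also lowest in the later buds but highest in forelimb HH15, although CDH1 was lowest in flank. Their part was not tested. The edgeR log2 fold of HSP70 was -1.24 ± 0.38 (edgeR adjusted p = 0.132), and -1.66 without forelimb HH15 (edgeR adjusted p = 0.0401). The fit without forelimb HH15 called 2.7% of all genes lower, against 0.0801% in the main fit. Over all fits with 1 library left out the fold of HSP70 ran from -1.66 to -0.949. Under the other settings it ran from -1.44 to -1.003. HSPA4, another HSP110 protein, was the steadiest of all 42 entries, between 142 and 162 CPM over the 6 libraries. HSPA12A, a distant HSP70 relative, was at 5.82 to 9.40 CPM in limb, with neck at 9.58 CPM and flank at 10.4 CPM (edgeR log2 fold -0.31 ± 0.26).

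HSP90 was represented under the rule by HSP90B1 (endoplasmin), the HSP90 of the endoplasmic reticulum. It was at 575, 505 and 625 CPM across presumptive forelimb, forelimb bud and hindlimb bud, against 501 CPM for neck and 398 CPM for flank. The classes did not overlap by value, but forelimb HH19 (490 to 521 CPM) and neck (486 to 517 CPM) did not differ beyond their counting intervals. The edgeR log2 fold was 0.48 ± 0.13 (edgeR adjusted p = 0.113). The cytosolic HSP90-beta entry HS90B_CHICK, which the rule leaves out and which was looked up after values were seen, was at 1206, 1201 and 1263 CPM in limb, with neck at 661 CPM and flank at 663 CPM. It was higher in 3 of 3 limb libraries, with an edgeR log2 fold of 1.02 ± 0.12 (edgeR adjusted p = 0.0555, limma adjusted p = 0.0408). TRAP1, the mitochondrial HSP90, also outside the rule, overlapped between the classes. It was at 121, 114 and 101 CPM in limb, with neck at 105 CPM and flank at 110 CPM (edgeR log2 fold 0.19 ± 0.13).

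The small heat shock proteins were low. From lowest to highest library, HSPB8 varied 13.2-fold and HSPB1 7.86-fold, HSP25 varied 2.77-fold, and the J-domain gene DNAJC6 varied more than any of these, 20.1-fold. The lowest library held 7 reads for HSPB8 and 4 reads for DNAJC6, so these 2 ranges are uncertain. HSPB1, which also binds actin, was at 33.4, 18.6 and 7.17 CPM across presumptive forelimb, forelimb bud and hindlimb bud, against 56.4 CPM for neck and 25.0 CPM for flank. HSPB8, a partner in the autophagic removal of misfolded proteins, was at 11.6, 0.880 and 3.12 CPM in limb, with neck at 6.88 CPM and flank at 6.53 CPM. In both genes forelimb HH15 lay with or above the trunk libraries and the later buds lay beneath them, so that the classes overlapped. HSP25 was at 5.33, 6.91 and 3.95 CPM in limb, against 2.70 CPM for neck and 7.49 CPM for flank, and the adjacent entry LOC772158, described as similar to HSP25, was at 1.402 to 2.14 CPM in limb, with neck at 0.737 CPM and flank at 1.09 CPM. These 2 entries are 1064 bases apart on chromosome 27 and may share reads, so the level of each is uncertain. HSPB7, a muscle small HSP, was at 3.81 CPM (34 reads) in the library labelled flank and neck and at 0 to 0.369 CPM in the other 5. The 5 striated muscle genes found summed to 8.96 CPM in that library and to 7.16 to 14.99 CPM in the other 5, with MYF5 at 3.59 CPM and TNNT2 at 0 in it; their part was not tested. None of the 4 tested small HSP entries passed any of the 3 tests (edgeR, 0 with p under 0.05 before adjustment; DESeq2, 0; limma, 0).

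Of the 22 J-domain entries tested, 9 were higher (15.4% of all genes) and 4 lower (27.5% of all genes) in limb without overlap and 9 overlapped. None passed the edgeR test. Before adjustment, 7 higher (12.9% of all genes) and 1 lower (10.5% of all genes) had an edgeR p under 0.05. DESeq2 called 5 higher and 0 lower (7.5% and 4.11% of genes with a DESeq2 adjusted p), and limma called 0. Of the 9 higher ones 8 were of class C, as were 16 of the 22 tested. DNAJC8, a splicing-associated protein, was at 191, 189 and 180 CPM across presumptive forelimb, forelimb bud and hindlimb bud, against 152 CPM for neck and 138 CPM for flank. DNAJC17, an RNA-binding protein of the spliceosome, was at 59.0, 79.2 and 58.9 CPM in limb, with neck at 42.02 CPM and flank at 39.3 CPM. Their edgeR log2 folds were 0.50 ± 0.10 (edgeR adjusted p = 0.0734) and 0.83 ± 0.20 (edgeR adjusted p = 0.0918). DNAJC11, a protein of mitochondrial membrane organisation, was at 80.2 to 83.6 CPM in limb, against 70.6 CPM for neck and 56.3 CPM for flank, and DNAJC18 at 33.2 to 40.6 CPM in limb, with neck at 23.3 CPM and flank at 26.0 CPM. In all 4 of these genes every limb library lay above both trunk tissues. DNAJC15 and DNAJC19 belong to the import motor of the mitochondrial inner membrane. DNAJC15 was at 33.7, 38.3 and 33.8 CPM in limb, against 26.0 CPM for neck and 32.0 CPM for flank. DNAJC19 has 2 entries, which may share reads: that on chromosome 9 was at 46.7, 63.5 and 39.6 CPM in limb, with neck at 30.8 CPM and flank at 37.8 CPM, while the unplaced one overlapped between the classes. DNAJA4, DNAJC1 and DNAJC9 made up the rest of the 9, with gaps between the classes of 0.01, 0.17 and 0.02 log2. The intervals of DNAJA4 in hindlimb (105 to 118 CPM) and neck (104 to 118 CPM) were nearly the same. The library labelled flank and neck held the highest level of all for DNAJC1 and DNAJC15, at 65.7 and 45.9 CPM. DNAJC18 was at 39.1 CPM there, within the range of the limb libraries. The others of the 9 were below every limb library there.

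The J-domain entries lower in every limb library than in neck and flank were DNAJC13, DNAJC10, DNAJC12 and DNAJC5. In the library labelled flank and neck, DNAJC13 was at 53.2 CPM, above every limb library. DNAJC10 was at 51.8 CPM there, below every limb library. DNAJC12 and DNAJC5 were at 3.59 and 10.6 CPM there, within the range of the limb libraries. DNAJC13, which acts on endosomes, was at 46.0, 46.5 and 46.3 CPM across presumptive forelimb, forelimb bud and hindlimb bud, against 78.8 CPM for neck and 61.3 CPM for flank. Its 3 limb values were almost identical, and its edgeR log2 fold was -0.46 ± 0.14 (edgeR adjusted p = 0.125). DNAJC10, a disulphide reductase of the endoplasmic reticulum, was at 76.7 to 91.5 CPM in limb and at 108 CPM in both neck and flank. DNAJC12, a cytosolic J-domain protein, was at 4.77, 2.01 and 4.88 CPM in limb, with neck at 10.1 CPM and flank at 5.68 CPM. DNAJC5, the cysteine string protein of secretory vesicles, was at 9.93 to 13.8 CPM in limb, against 15.5 CPM for neck and 14.9 CPM for flank. DNAJC6, an auxilin that strips clathrin from vesicles, was at 3.79, 1.26 and 0.416 CPM in limb, with neck at 8.35 CPM and flank at 2.90 CPM, so forelimb HH15 lay above flank. The edgeR log2 folds of DNAJC10, DNAJC12, DNAJC5 and DNAJC6 were -0.20, -0.87, -0.17 and -1.52, each at an unadjusted edgeR p above the threshold of 0.05. Over the 22 entries the median difference was 0.09 log2, against -0.14 over all genes. The 4 class B entries all overlapped; DNAJB11, a partner of the endoplasmic reticulum HSP70, was at 108 to 142 CPM in limb, against 121 CPM for neck and 106 CPM for flank. DNAJC21 and DNAJC14, both of class C, overlapped too, at 19.4 to 22.8 CPM and 8.11 to 11.2 CPM in limb, with edgeR log2 folds of 0.22 ± 0.16 and 0.01 ± 0.22; without TMM scaling that of DNAJC14 was -0.13.

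The remaining entries were those brought in by name or description. ZFAND2A, a stress-inducible zinc finger protein that binds the proteasome, was at 28.9, 30.3 and 28.0 CPM across presumptive forelimb, forelimb bud and hindlimb bud, with neck at 11.3 CPM and flank at 10.2 CPM. The interval ran from 24.8 to 31.5 CPM in hindlimb (lowest of limb) and from 9.22 to 13.9 CPM in neck (highest of trunk). In 3 of 3 limb libraries it was higher, and it rose by 1.57 ± 0.16 (log2, SE; edgeR adjusted p = 0.0445). SERPINH1, the collagen chaperone also called HSP47, was at 116, 115 and 133 CPM in limb, against 264 CPM for neck and 173 CPM for flank. It was lower in 3 of 3 limb libraries, with an edgeR log2 fold of -0.70 ± 0.17 (edgeR adjusted p = 0.0916). Q5F4C3_CHICK was at 29.3, 21.0 and 19.1 CPM in limb, with neck at 43.4 CPM and flank at 45.2 CPM, with an edgeR log2 fold of -0.82 ± 0.20 (edgeR adjusted p = 0.0960). HSPBAP1 was at 2.24, 1.76 and 2.39 CPM in limb, against 2.95 CPM for neck and 3.02 CPM for flank, with an edgeR log2 fold of -0.35 ± 0.36 (edgeR adjusted p = 0.586). Both trunk values lay above every limb value, but the fold was smaller than its SE. Leaving out libraries moved the adjusted p of both called genes across the threshold. Without forelimb HH15 it was 0.0227 for each, without any other library it lay between 0.116 and 0.200 for HSPE1 and between 0.151 and 0.228 for ZFAND2A, and their log2 folds lay between 1.14 and 1.405 and between 1.52 and 1.59. With size factors of the DESeq2 type in edgeR, HSPE1 had an adjusted p of 0.0549.

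Single libraries were then compared, which allows no test, counting entries at least 1.5-fold apart on the log2(CPM + 1) scale. From presumptive forelimb at HH15 to forelimb bud at HH19, 0 of 41 entries were higher (8.42% of all genes) and 6 were lower (15% of all genes). The 6 were HSPB8 at -2.75 log2, HSP70 at -1.48, DNAJC6 at -1.08, DNAJC12 at -0.94, HSPB1 at -0.81 and the mitochondrial class A protein DNAJA3 at -0.67. HSPB8 went from 83 reads (9.39 to 14.4 CPM) at HH15 to 7 reads (0.426 to 1.82 CPM) at HH19. HSP70 went from 37.3 to 12.7 CPM. The largest differences upwards stayed below 1.5-fold, up to 0.43 log2 for the chromosome 9 entry of DNAJC19 and 0.42 for DNAJC17. The epithelial sum differed between the same 2 libraries, as given above.

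Between the limb types, hindlimb HH18 against forelimb HH19, 3 of 40 entries were higher (6.71% of all genes) and 5 lower (7.31% of all genes). HSPB8 was higher in hindlimb by 1.13 log2, DNAJC12 by 0.97 and HSP70 by 0.77. HSPB1 was lower, at -1.26 log2, with 7.17 CPM (5.67 to 9.07) in hindlimb and 18.6 CPM (15.8 to 21.8) in forelimb HH19. The small HSPs thus did not order the 2 buds alike. The other lower entries were DNAJB5 at -0.71, HSP25 at -0.68, DNAJC6 at -0.67 and the chromosome 9 entry of DNAJC19 at -0.67. DNAJC6 rested on 4 reads in hindlimb and 10 in forelimb HH19, and its intervals (0.162 to 1.07 and 0.683 to 2.31 CPM) overlapped. HSPH1 and HSPD1 were higher in hindlimb by 0.58 and 0.45, less than 1.5-fold. Stage and limb type cannot be told apart in this pair, which differ by 1 stage.

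Between the trunk tissues, neck against flank, 4 of 41 entries were higher in neck (13.5% of all genes) and 2 lower (5.4% of all genes). DNAJC6 was higher in neck by 1.26 log2, HSPB1 by 1.14, DNAJC12 by 0.73 and SERPINH1 by 0.61. HSP25 was lower in neck, at -1.20 log2, with 2.70 CPM (1.79 to 4.09) against 7.49 CPM (5.85 to 9.61) in flank. DNAJB13, an axonemal J-domain protein, was lower, at -0.80 log2, with 0.614 CPM (5 reads) against 1.81 CPM (15 reads). Its intervals, 0.262 to 1.44 CPM in neck and 1.10 to 2.99 CPM in flank, overlapped. The endothelial sum was highest in neck and the globin sum in flank, as given above, and their part in these differences was not tested.

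**Figure D3:**
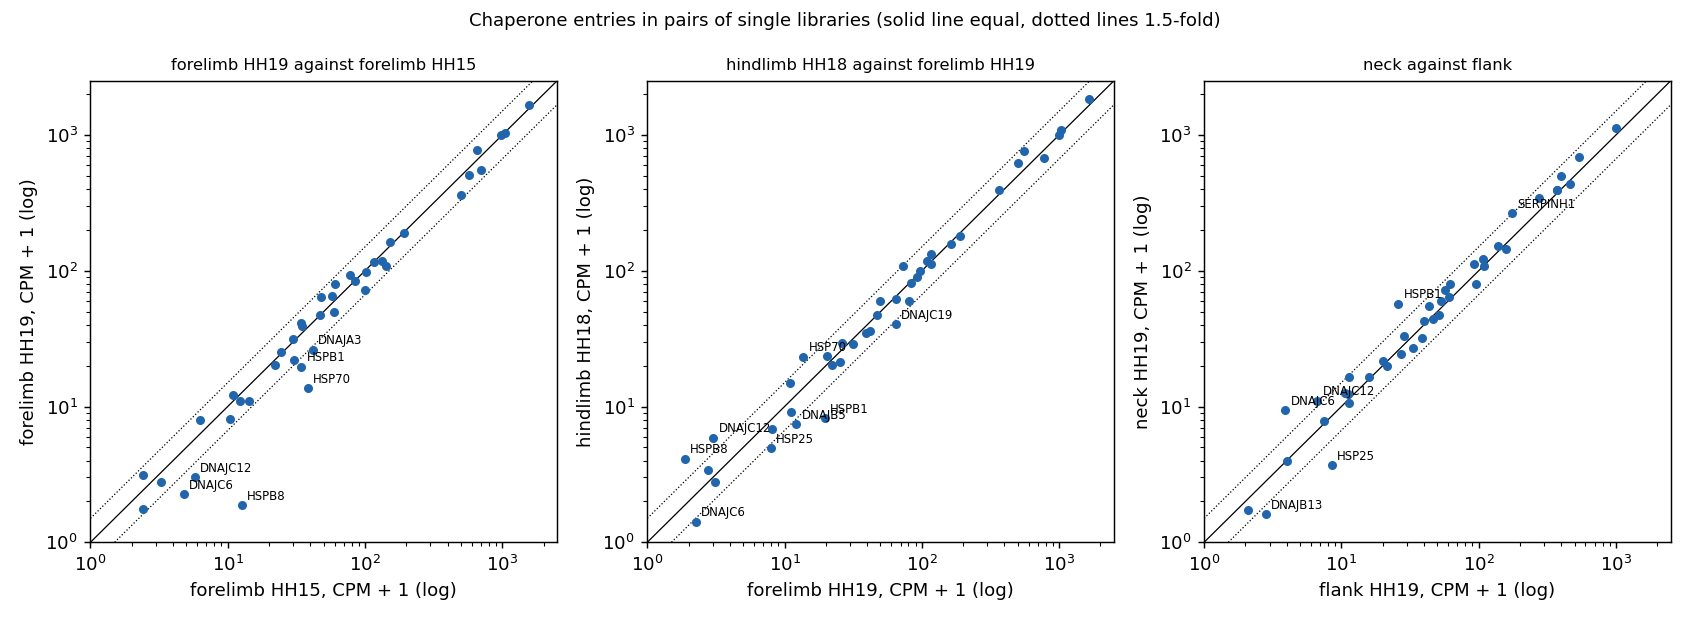
Each point is 1 entry, with CPM + 1 in 1 library against CPM + 1 in another on log axes, for forelimb HH19 against forelimb HH15, hindlimb HH18 against forelimb HH19, and neck against flank. Names mark entries past the dotted 1.5-fold lines; between the 2 forelimb stages all 6 lie on the lower side, HSPB8 furthest at -2.75 log2.

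Forelimb HH19 was also set against each trunk tissue singly, in 2 comparisons that share the forelimb library. Against flank, 11 of 41 entries were higher (12% of all genes) and 6 lower (21.3% of all genes). Against neck, 9 of 40 were higher (9.21% of all genes) and 9 lower (30.2% of all genes). ZFAND2A was higher by 1.49 log2 against flank and 1.35 against neck, HSPE1 by 1.11 and 1.21, and CCT6A by 1.06 and 0.98. HSP70 was at -2.16 log2 against flank and -2.23 against neck, and HSPB8 at -2.002 and -2.07. Some entries were past 1.5-fold against neck and not against flank, among them HSPB1 at -1.55 and -0.41 and SERPINH1 at -1.19 and -0.58.

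The library labelled flank and neck lay outside the range of neck and flank for most entries. Of the 42, 15 were above both (35.7%, against 32.8% of all genes), 20 below both (47.6%, against 48.3%) and 7 between them (16.7%, against 18.9%). These shares are near those of all genes. HSPE1 was at 778 CPM (760 to 797) there, above neck and flank and below every limb library, and CCT8 was at 844 CPM, CCT6A at 511 CPM and HSPD1 at 472 CPM in the same position. The remaining chaperonin entry, CCT7, was not in that position. It was at 265 CPM (255 to 276), the lowest of the 6 libraries, beside 275 CPM (264 to 286) in flank. HSPA8 was at 736 CPM, HSPH1 at 38.0 CPM, HSP90B1 at 322 CPM and ZFAND2A at 8.96 CPM, each also the lowest of the 6 libraries. SERPINH1 was at 689 CPM (672 to 706), the highest of the 6. Against forelimb HH19, 10 of 42 entries were higher (22.3% of all genes) and 12 lower (14.7% of all genes). They were led by SERPINH1 at 2.57 log2 and HSPB8 at 2.02 and by ZFAND2A at -1.65, HSPA8 at -1.17 and DNAJB11 at -1.03. HSPB7, at 2.10, is counted in the 10 and in the 15 above both. It passed the CPM filter only through the library labelled flank and neck, so its direction was set by the filter. Adding this library to the non-limb class left 0 edgeR calls in either direction, both among the entries and among all 12737 genes of that fit. Before adjustment, 13 entries were higher and 5 lower with an edgeR p under 0.05. The share of all genes was not counted, so nothing is concluded from these counts. The edgeR log2 folds were then 0.90 for HSPE1 (edgeR adjusted p = 0.182) and 1.61 for ZFAND2A (edgeR adjusted p = 0.114).

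**Figure D4:**
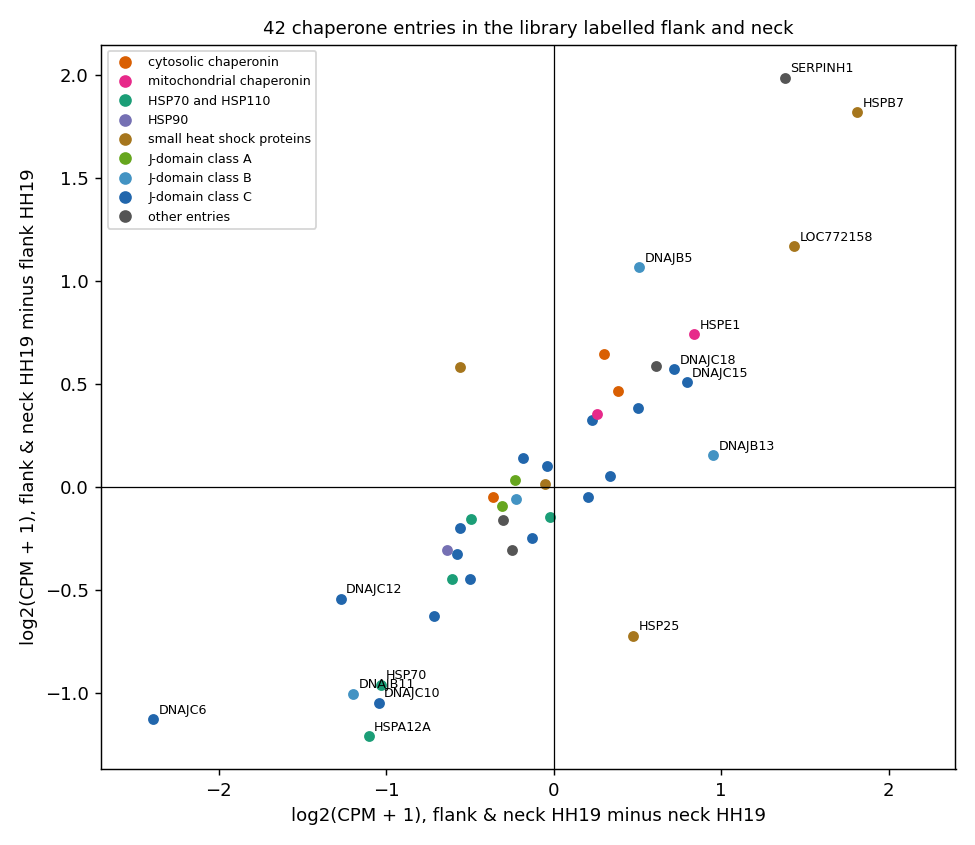
The x axis gives the difference in log2(CPM + 1) of the library labelled flank and neck from neck, and the y axis its difference from flank, for the 42 entries coloured by family. Of these, 15 lie above both tissues in the upper right, among them SERPINH1 and HSPE1, and 20 lie below both in the lower left, among them HSPA8 and HSP70.

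Over all 6 libraries, 8 of the 42 entries (19%, against 17% of all genes) had a highest level under 1.5 times the lowest. They were HSPA4, the class B protein DNAJB4 (48.6 to 58.8 CPM), the histone cochaperone DNAJC9 (79.5 to 101 CPM), DNAJC8, DNAJC1, DNAJA4, DNAJC11 and the unplaced DNAJC19 entry. The 42 entries together took 0.776%, 0.751% and 0.798% of the reads in forelimb HH15, forelimb HH19 and hindlimb, 0.561% in neck and 0.497% in flank, while the library labelled flank and neck had 0.588%. The sum was thus higher in each limb library than in each of the others. The chaperonin entries made up much of this: the 3 cytosolic ones summed to 2163 to 2208 CPM in limb and to 1417 and 1183 CPM in neck and flank, and the mitochondrial pair to 1561 to 1756 CPM in limb and to 828 and 834 CPM in neck and flank.

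Partner genes of these chaperones were taken from lists of textbook members. For every list here, the shares of all genes without overlap were 15.4% higher and 27.5% lower. An edgeR p under 0.05 before adjustment was found for 12.9% higher and 10.5% lower. DESeq2 called 7.5% higher and 4.11% lower of the genes with a DESeq2 adjusted p. Of 20 tested HSP70 and HSP90 cochaperones, 9 were higher and 1 lower in limb without overlap, with a median difference of 0.15 log2 (-0.14 over all genes, as for every list here); none passed the edgeR test (5 higher and 0 lower with an edgeR p under 0.05 before adjustment), DESeq2 called 4 and limma 0. PPID, a cyclophilin of the HSP90 complex, was at 156, 141 and 154 CPM across presumptive forelimb, forelimb bud and hindlimb bud, against 92.3 CPM for neck and 87.6 CPM for flank. AHSA1, which stimulates the ATPase of HSP90, was at 142 to 176 CPM in limb, with neck at 107 CPM and flank at 97.7 CPM, and NUDC at 264 to 317 CPM in limb, against 207 CPM for neck and 172 CPM for flank. BAG2, an exchange factor of HSP70, overlapped between the classes. The edgeR log2 folds of PPID, AHSA1 and NUDC were 0.87, 0.75 and 0.73, with edgeR adjusted p between 0.0555 and 0.0566.

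In the list of mitochondrial import and quality control, 10 of 21 tested genes were higher (15.4% of all genes) and 3 lower (27.5%) without overlap. Their median was 0.23 log2. The edgeR test called 0, with 9 higher at p under 0.05 before adjustment, while DESeq2 called 6 higher and limma 0. GRPEL1, the exchange factor of the mitochondrial HSP70, was at 105 to 139 CPM in limb, with neck at 77.2 CPM and flank at 71.7 CPM. TIMM8A, a small carrier of proteins between the mitochondrial membranes, was at 163 to 195 CPM in limb, against 111 CPM for neck and 94.0 CPM for flank. TIMM23, the inner membrane channel, reached 151 CPM in forelimb HH19 but 76.8 and 75.0 CPM in forelimb HH15 and hindlimb, against 47.2 CPM for neck and 60.8 CPM for flank, and prohibitin (PHB) was at 414 to 506 CPM in limb, with neck at 292 CPM and flank at 288 CPM. Of 14 prefoldin genes and chaperonin cofactors, 3 were higher (15.4% of all genes) and 1 lower (27.5%) without overlap. Their median was 0.014 log2. The edgeR test called 0, with 3 higher and 1 lower at p under 0.05 before adjustment, while DESeq2 called 1 higher and limma 0. PFDN4, a subunit of the prefoldin that hands actin and tubulin to the chaperonin, was at 83.7 to 96.6 CPM in limb, against 45.3 CPM for neck and 54.9 CPM for flank. MKKS, a chaperonin-like protein, was at 7.16 to 10.9 CPM in limb, with neck at 22.4 CPM and flank at 12.2 CPM.

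Of 20 tested genes of endoplasmic reticulum folding and the unfolded protein response, 4 were higher (15.4% of all genes) and 2 lower (27.5%) without overlap. Their median was 0.08 log2. The edgeR test called 0, with 4 higher at p under 0.05 before adjustment, while DESeq2 called 3 higher and limma 0. HSPA5 (listed as GRP78_CHICK), the HSP70 of the endoplasmic reticulum, was at 526, 507 and 566 CPM in limb, against 454 CPM for neck and 354 CPM for flank. SEL1L, of the degradation machinery, was at 29.7 to 31.8 CPM in limb, with neck at 54.3 CPM and flank at 34.7 CPM. The heat shock factor list had 4 tested genes, the factors HSF1, HSF2 and HSF3 and the factor-binding protein HSBP1. HSF2 was at 96.8, 129 and 128 CPM in limb, against 74.5 CPM for neck and 74.1 CPM for flank, with an edgeR log2 fold of 0.81 ± 0.19 (edgeR adjusted p = 0.0895). HSF1 was at 4.57 to 6.66 CPM in limb, with neck at 5.41 CPM and flank at 6.65 CPM, and overlapped between the classes. HSF3 overlapped too. HSBP1 was at 780 to 937 CPM in limb, with neck at 760 CPM and flank at 734 CPM (edgeR log2 fold 0.29 ± 0.12, edgeR adjusted p = 0.206). The median of the 4 was 0.21 log2, and none passed the edgeR test. The 2 higher with an edgeR p under 0.05 before adjustment were HSF2 and HSBP1, while DESeq2 called 1 and limma 0. Of 11 stress-induced partners tested, 2 were higher (15.4% of all genes) and 1 lower (27.5%) in limb without overlap, and 8 overlapped. JUN was at 26.4, 14.6 and 13.2 CPM in limb, against 55.9 CPM for neck and 73.0 CPM for flank (edgeR log2 fold -1.73 ± 0.32). UBB, a polyubiquitin gene, was at 1346 to 1808 CPM in limb, with neck at 1110 CPM and flank at 1089 CPM. Among those that overlapped, HMOX1 was at 16.1 to 23.7 CPM in limb, with neck at 28.5 CPM and flank at 22.4 CPM. EGR1 was at 0.701 to 12.5 CPM in limb, against 2.33 CPM for neck and 5.80 CPM for flank. The median of that list was 0.18 log2, and none of it passed the edgeR test (2 higher and 1 lower with p under 0.05 before adjustment; DESeq2, 2 higher and 1 lower; limma, 0).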

How the data were processed

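The 6 polyA RNA-seq libraries (1 per tissue and stage) were read from 1 deposited table. Its reads columns are counts per gene as deposited by the authors. Its normalised columns are CPM made by the authors, each equal to its counts divided by the library's total counted reads. Per the submitters' processing notes, TopHat 1.4.0 and the build galGal4 were used; read counter, strand setting and annotation are not given in the sources used here, so overlapping genes may share reads. Initials and stage tied 1 column to the flank-and-neck sample.

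Genes reaching 1 CPM in any of the 5 limb, neck and flank libraries were tested with edgeR 4.0.16 (TMM, quasi-likelihood, two-sided, Benjamini-Hochberg over 12486 genes, threshold 0.05; R 4.3.3); SE is the log2 fold over the root of the F statistic. The common biological coefficient of variation was 0.283. Single libraries were compared on log2(CPM + 1) with a threshold of 1.5-fold. DESeq2 1.42.0 and limma 3.58.1 were alternatives, beside other scalings, filters (none, 5 CPM), pseudocount (0.1), threshold (2-fold) and libraries left out; the edgeR step was tested on simulated data. The 7 partner lists (168 genes, 120 found) and 44 marker genes (32 found) were matched by symbol, RefSeq protein accession or entry name; some entry names were added after the table was read. Members and lists were chosen with earlier results of these data known. Genes were picked for naming by a fixed rule: called entries, the 10 largest gaps per direction, the 5 largest pairwise differences per direction, all chaperonin and HSP90 entries, and up to 4 genes per list. Not all picks are described: TBCA (higher in limb), ATF6 (lower), BBS10 and CRTAP (both overlapping) and some pairwise picks are left out. Entries outside the rule are given to account for all members. Sequences were not used here. Wilson intervals (95%) and the floor of 3 reads reflect counting error alone.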

Additional observations from a re-analysis of the deposited data

How the results depend on the processing

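The count of entries called higher in limb was 2 with edgeR (7 of all 12486 genes). It was 14 with DESeq2 (863 of all genes), 1 with size factors of the DESeq2 type (4 of all genes) and 7 with no filter (143 of all 16285 genes). It was 0 with the library labelled flank and neck added (0 of all genes) and 0 to 6 with 1 limb library left out (0 to 289 of all genes). The count called lower was 0 (10 of all genes), 3 with DESeq2 (473 of all genes) and 0 to 2 with 1 limb library left out (0 to 331 of all genes). The cause was not tested. Leaving out a library leaves fewer samples for the fit, and without forelimb HH15 the counts were 6 higher and 2 lower. Entries lower in limb without overlap numbered 9 (3428 of all genes), 5 after centring (1994 of all genes) and 5 with the library labelled flank and neck added (1803 of all genes). They numbered 9 to 14 with 1 library left out (3930 to 5857 of all genes), which can only add entries or, through the filter, drop them. Those higher numbered 19 (1924 of all genes) and stayed between 15 and 25, while the number over all genes ran from 1186 to 3491. The median difference was 0.163 over the entries, against -0.14 over all genes. After centring both rose, to 0.371 and 0.0679. Otherwise it was 0.122 to 0.182 over the entries and -0.21 to -0.0454 over all genes. At a 2-fold threshold the pairwise counts were 3 (forelimb HH19 against HH15), 2 (hindlimb HH18 against forelimb HH19), 3 (neck against flank), 7 and 11 (forelimb HH19 against flank and neck) and 8 (flank and neck against forelimb HH19), and with a 5 CPM filter the hindlimb count was 5. The shares of all genes at these pairwise settings were not counted. The edgeR log2 folds of the 20 entries at an unadjusted p below 0.05 kept their sign under every alternative run. DNAJB4 and DNAJC14 changed sign between TMM and library size scaling, at 0.12 and 0.01 against -0.01 and -0.13. No paired analysis was possible because there was 1 library per tissue and stage. Depth limits HSPB7, DNAJB13, DNAJC6, LOC772158 and HSPB8 most, which held under 10 reads in at least 1 library.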

Other observations

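Chaperones of histones and the protein-degrading proteasome were also measured. All 23 tested genes of that list had a higher mean in limb, as had 37.8% of all genes. Of the 23, 16 were higher without overlap (15.4% of all genes) and 16 were higher with an edgeR p under 0.05 before adjustment (12.9% of all genes). The median difference was 0.36 log2, against -0.14 over all genes. Adjusted over all genes, edgeR called 1 of them, the nucleolar histone chaperone NPM3, while 13 passed with DESeq2 and 1 with limma. PSMA7, a subunit of the proteasome core, was at 303, 265 and 273 CPM across presumptive forelimb, forelimb bud and hindlimb bud, with neck at 195 CPM and flank at 167 CPM. PSMC1 and PSMC5, ATPases of the regulatory cap, were at 235 to 252 CPM and 231 to 297 CPM in limb, against 152 and 175 CPM and 167 and 180 CPM in flank and neck. The edgeR log2 folds of these 3 genes were 0.76, 0.73 and 0.78.

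A search of the descriptions found 17 family entries that the rule leaves out, of which 16 were tested. Relatives without that wording, such as HSPA9, HYOU1, TRAP1 and HSCB, were not among them. In limb, 9 were higher (15.4% of all genes) and 1 lower (27.5%) without overlap. The 9 include HS90B_CHICK, Q5F411_CHICK, Q5F424_CHICK and Q9I8D6_CHICK, given above as looked up after values were seen. They also include HSPA5, already counted in the endoplasmic reticulum list. None passed the edgeR test, with 9 higher at p under 0.05 before adjustment (12.9% of all genes). DESeq2 called 9 higher (7.5% of genes with a DESeq2 adjusted p) and limma 1 (0.12% of all genes). DNJB6_CHICK, a J-domain protein that holds back aggregation, was at 130 to 153 CPM in limb, against 114 CPM for neck and 110 CPM for flank, and Q5F3J8_CHICK (HSPA4L) at 159 to 165 CPM in limb, with neck at 128 CPM and flank at 116 CPM.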
